A study of Mus musculus with 144 samples.

Results

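The interferon-stimulated genes described here are 43 genes, selected by symbol from a table of 55254 gene symbols. They were followed in single cells, each sequenced as 1 library. The cells were sorted from retinas of Iba1-EGFP mice aged 16 weeks, a strain in which green fluorescence marks cells that use the Iba1 (Aif1) gene, so that microglia and other macrophages can both enter the sort. The labels call all cells microglia. The 54 untreated cells had no treatment, and the other cells were taken after a crush injury of the optic nerve, 54 of them on day 2 and 36 on day 4. No label says which animal a cell came from. A time point is therefore 1 sample of cells here, no test between time points was made, and no p-value is given. Each of 3 plates held 18, 18 and 12 cells of the 3 time points in separate rows, so that plate row and time point cannot be told apart.

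Interferons are secreted proteins that a cell releases when it senses foreign or misplaced nucleic acid. Type I interferons bind a receptor shared by nearly all cells, Janus kinases at the receptor phosphorylate STAT proteins, and a complex that holds STAT2 and IRF9 binds the interferon-stimulated response element (ISRE) in the promoters of its targets. The targets sense nucleic acids, block steps of virus replication, or feed back on the pathway, and subsets of microglia with high levels of such genes are known from injured, aged and infected nervous tissue.

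The promoters of 8 members are shown. They were chosen because the element that defines the pathway can be read in 7 of them and is not matched in the window of Irf1. By the correlation given further on, Irf1 is the member least like the rest. Members that go with the rest, among them Irf7 and Slfn2, lack the match too. No link between match and correlation was tested. Each line gives 200 bases that end at the base before a RefSeq start site, 5′ to 3′ in the direction of the gene, in GRCm38.p6. Capitals mark each match to GAAA, any 2 bases and GAAA on either strand (the core of the ISRE, which reads TTTC, any 2 bases and TTTC on the other strand, with overlapping matches allowed), except for Irf1, where they mark a match to TTCNNNGAA, the gamma-activated site (GAS) known from interferon gamma targets.
Isg15, chr4:156200819-156201018, minus strand: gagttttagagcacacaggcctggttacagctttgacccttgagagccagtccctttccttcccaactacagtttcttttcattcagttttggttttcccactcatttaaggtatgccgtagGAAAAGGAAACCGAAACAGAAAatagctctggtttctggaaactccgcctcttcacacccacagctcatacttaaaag
Ifit1, chr19:34640689-34640888, plus strand: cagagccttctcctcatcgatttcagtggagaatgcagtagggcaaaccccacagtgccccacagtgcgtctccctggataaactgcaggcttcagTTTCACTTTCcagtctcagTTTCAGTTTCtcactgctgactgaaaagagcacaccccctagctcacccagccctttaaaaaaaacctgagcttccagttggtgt
Ifit3, chr19:34583329-34583528, plus strand: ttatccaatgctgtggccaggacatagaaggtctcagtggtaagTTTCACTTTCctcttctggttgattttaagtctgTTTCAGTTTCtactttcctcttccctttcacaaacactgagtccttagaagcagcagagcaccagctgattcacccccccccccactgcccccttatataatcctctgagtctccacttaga
Ifit3b, chr19:34607757-34607956, plus strand: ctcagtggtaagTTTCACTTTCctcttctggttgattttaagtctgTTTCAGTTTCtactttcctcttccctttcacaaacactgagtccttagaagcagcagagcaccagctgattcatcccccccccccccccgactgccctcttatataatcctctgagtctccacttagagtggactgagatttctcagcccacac
Rsad2, chr12:26456453-26456652, minus strand: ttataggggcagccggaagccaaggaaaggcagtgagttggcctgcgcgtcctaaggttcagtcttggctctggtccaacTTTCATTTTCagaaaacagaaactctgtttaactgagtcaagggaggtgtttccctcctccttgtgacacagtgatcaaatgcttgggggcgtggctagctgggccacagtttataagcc
Oas1a, chr5:120907526-120907725, minus strand: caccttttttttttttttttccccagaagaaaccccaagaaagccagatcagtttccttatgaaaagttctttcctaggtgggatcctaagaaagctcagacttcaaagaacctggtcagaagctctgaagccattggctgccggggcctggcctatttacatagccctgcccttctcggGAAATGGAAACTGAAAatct
Bst2, chr8:71537473-71537672, minus strand: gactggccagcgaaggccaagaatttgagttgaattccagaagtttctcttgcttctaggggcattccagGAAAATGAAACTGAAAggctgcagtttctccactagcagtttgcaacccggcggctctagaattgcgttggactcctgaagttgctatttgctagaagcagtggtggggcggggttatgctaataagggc
Irf1, chr11:53769814-53770013, plus strand: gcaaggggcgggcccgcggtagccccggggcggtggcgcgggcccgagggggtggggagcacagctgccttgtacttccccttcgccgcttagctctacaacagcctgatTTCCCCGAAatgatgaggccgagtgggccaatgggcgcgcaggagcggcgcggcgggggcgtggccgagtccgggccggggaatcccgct

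Matches were counted from the start site, with -1 as the last base before it. In Isg15, which encodes a ubiquitin-like protein, 3 overlapping matches began at -78, -72 and -66. Ifit1 had matches at -104 and -85, and Ifit3 at -156 and -122. The windows of the neighbouring genes Ifit3 and Ifit3b shared a stretch of 119 identical bases that holds both matches, offset by 32 bases. Rsad2 had a match at -120, Oas1a at -20 and -14, and Bst2 at -130 and -124. The match of Irf1 began at -90.

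RefSeq promoters, 250 bases before to 50 bases after a start, were matched by symbol for 33 of the 43 members. The ISRE core was found in 16 of the 33 (48.5%), against 3.44% of all 32851 promoters of this length and 4.45% of the promoters of measured genes. TTCNNNGAA was found in 8 of the 33 members (24.2%), against 8.30% of all promoters. The ISRE core was present in 6 of the 13 members that were called higher on day 4 by the rule below and had a promoter, and in 6 of the 14 measured members that were not called. These are matches of letters in a window, and no binding was measured.

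Levels are given as FPKM, fragments per kilobase of exon scaled to the size of the library, which can be compared between genes because they are per length. A level of 20 FPKM or more is called high. For comparisons, the mean over cells of log2(FPKM + 1) was used, and a difference between time points is given on this scale, which understates differences of low genes. A gene was measured where at least 10% of all cells had an FPKM of at least 1, which held for 36 members and for 8679 genes in all. The other 7 members (Ifit1, Oas3, Rsad2, Cmpk2, Mx2, Slfn5 and Ifi44) were too rarely detected and are given by single cells. A gene was called higher or lower where the difference was at least 1 in size, with the same sign in each of the 3 plates.

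At least 3 of 10 microglia markers were high in 143 cells, all but 1. At least 3 markers of another cell type were high in 21 cells, mostly border macrophages (13 cells) and rods (4 cells), and in 0 cells for T and natural killer cells, plasmacytoid dendritic cells and endothelium. Recovered depth per cell ran from 710 to 13811 kiloreads in untreated cells, from 190 to 18877 on day 2 and from 2327 to 17482 on day 4, with medians of 4934, 5316 and 5798 kiloreads. The number of genes detected at 1 FPKM differed more, with medians of 2792, 3469 and 3957.5 genes per cell.

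A few members were found at high levels in most cells and the majority in a small minority of cells. Concentration in few cells was common among all measured genes, which had a median of 69.1% of their summed FPKM in their top 10 cells. Ifi27l2a, a short membrane protein gene, and Ifitm3, which blocks entry of viruses through endosomes, were at the top, with mean levels of 925.5 and 867 FPKM over all cells. Bst2, whose product tethers budding virus, followed with 265 FPKM, Lgals3bp, a secreted glycoprotein gene, with 244 FPKM, Ifit3 with 126 FPKM and Slfn2 with 117 FPKM. Each of these means rests on widely scattered cells, and their order was not tested. Ifi27l2a was high in 102 cells, Ifitm3 in 84, Bst2 and Lgals3bp in 76 each. By contrast, the median cell was under 1 FPKM for 35 of the 43 members in untreated cells, for 34 on day 2 and for 33 on day 4. For all 43 members the values of the 3 time points overlapped.

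**Figure D1:**
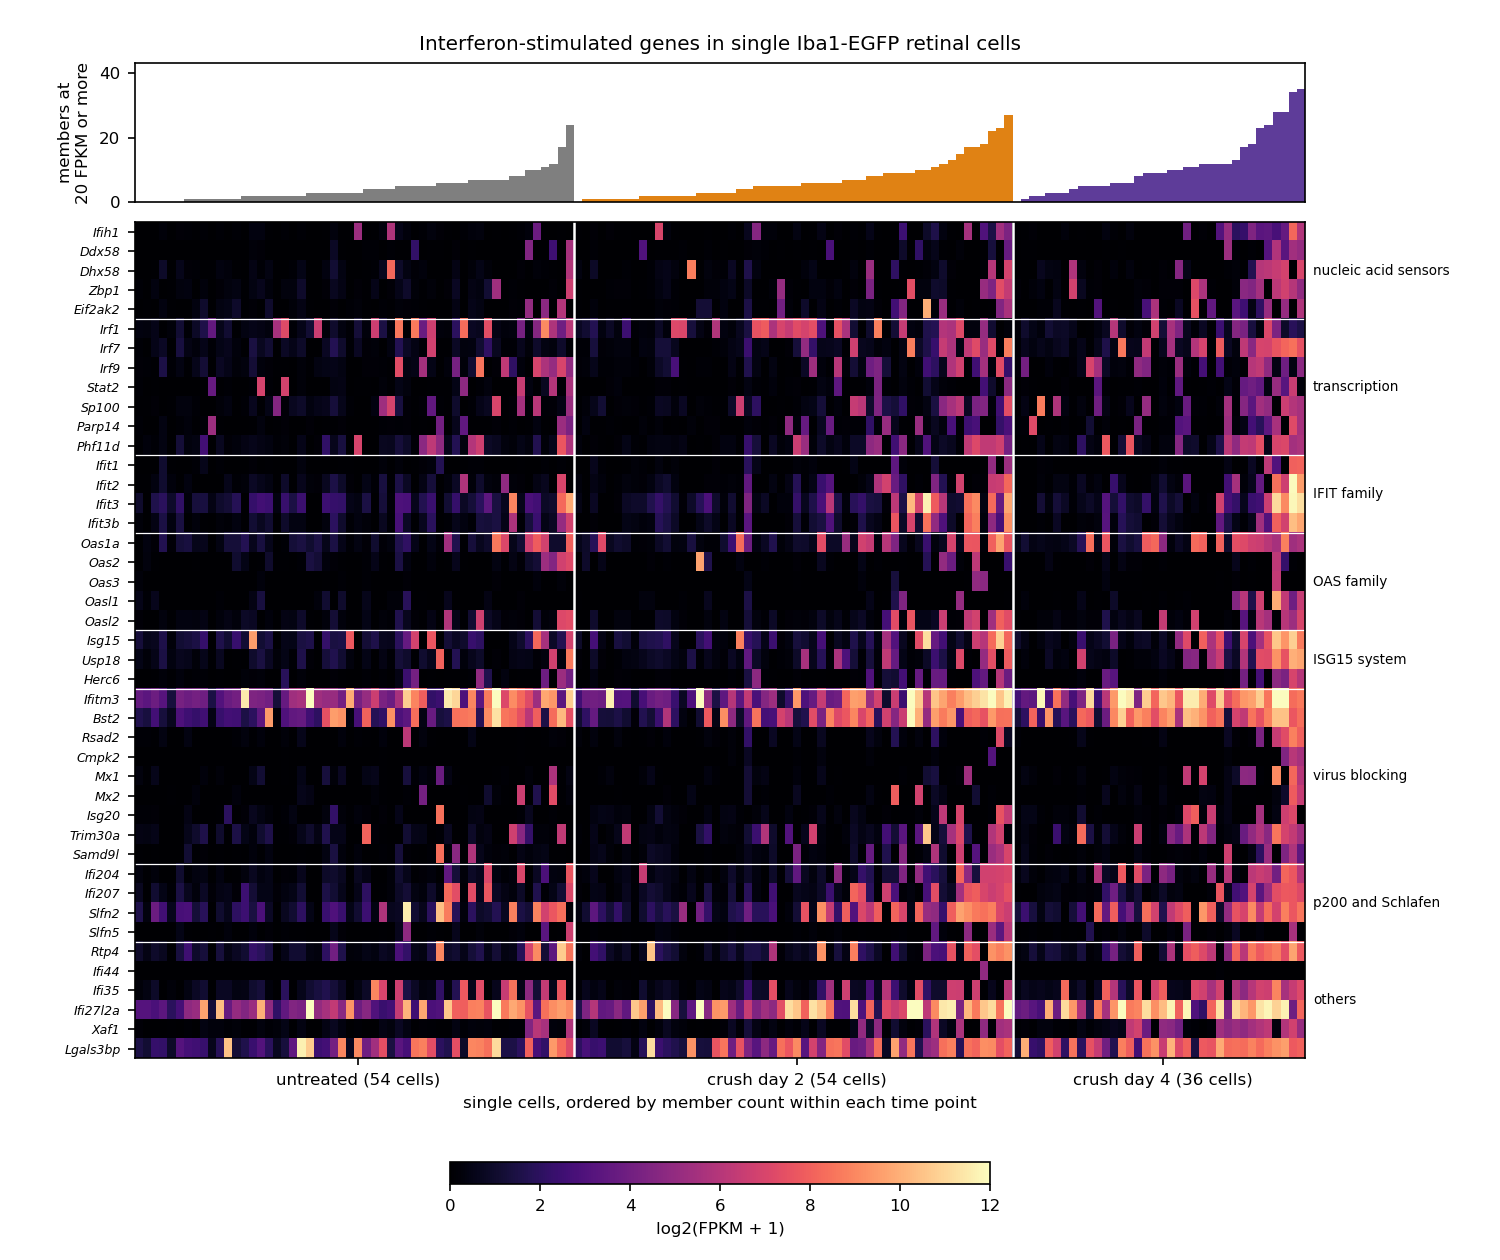
Levels of the 43 members (rows, grouped by role) as log2(FPKM + 1) in the single cells (columns). Cells are ordered within each time point by the number of members at 20 FPKM or more, which the bars show. Ifitm3, Bst2, Ifi27l2a and Lgals3bp are bright across many columns, whereas most other rows are bright in few. These few lie mainly at the right end of each time point, which follows in part from ordering the cells by these same members.

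On day 4 after crush, 19 of the 36 measured members (52.8%) were called higher than in untreated cells, where 18.9% of all 8679 measured genes were called higher. No member was called lower, and 0.346% of all genes were. The median difference of the members was 1.01, with 0.63, 1.52 and 1.09 in plates 1 to 3, and the median of all measured genes was 0.45. In 30 of the 36 members the difference was positive in all 3 plates, beside 43.4% of all measured genes. The members called were the sensors Ifih1 and Zbp1; Irf7 and Phf11d; Oas1a and Oasl1; Isg15 and Usp18; Ifitm3, Bst2, Mx1 and Trim30a; Ifi204 and Slfn2; and Rtp4, Ifi35, Ifi27l2a, Xaf1 and Lgals3bp. The number of detected genes was higher on day 4, and with that number as a covariate 6 members were called higher (Irf7, Oas1a, Usp18, Bst2, Trim30a and Ifi204) and 1 lower (Irf1), beside 5.90% and 3.06% of all genes. The part of the detected genes in the other calls was not tested. Without the 21 cells that carry markers of another type 18 members were called, beside 19.3% of all genes, with the calls of Ifih1, Slfn2 and Lgals3bp lost and others gained. Taking the median over cells in place of the mean left 5 of 36 members called (Ifitm3, Bst2, Slfn2, Ifi27l2a and Lgals3bp), beside 12.6% of all genes, so that by this measure the members were called about as often as other genes. The share of cells at 20 FPKM was higher on day 4 than in untreated cells for 38 of all 43 members, lower for 4 and equal for 1. The same count was not made over all genes, so it does not set the members apart from them.

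On day 2 after crush, 3 of the 36 measured members (8.33%) were called higher than in untreated cells, beside 3.89% of all genes: Irf7, Slfn2 and Ifi27l2a. No member was called lower (0.0576% of all genes). The median difference was 0.42 (0.22, 0.46 and 0.54 by plate), against 0.21 for all genes. With detected genes as a covariate 0 members were called, beside 0.933% of all genes. Leaving out plate 1 gave 7 members, beside 9.54% of all genes, and leaving out plate 3 gave 1 of 36, beside 4.36%, which is no more than for other genes. Without plate 3 the calls of Irf7, Slfn2 and Ifi27l2a were lost, and without plate 2 that of Irf7. The calls of Irf7 and Slfn2 were also lost without the cells that carry markers of another type, and that of Slfn2 without cells under 2000000 reads.

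Between day 4 and day 2, 10 members (27.8%) were called higher on day 4, beside 9.57% of all genes: Irf7, Oas1a, Oasl1, Usp18, Ifitm3, Mx1, Trim30a, Rtp4, Ifi35 and Xaf1. Irf1 was called lower (1 of 36, 2.78%), beside 0.864% of all genes. The median difference was 0.66 (0.53, 1.2 and 0.59 by plate), against 0.25 for all genes. The comparisons share cells, so their counts are not independent. Leaving out plate 2 gave 6 members called higher and removed the calls of Oas1a, Oasl1, Trim30a and Rtp4. Leaving out plate 1 removed the call of Mx1, and leaving out plate 3 that of Irf1. With detected genes as a covariate 4 members were called higher, beside 4.86% of all genes, and the calls of Oas1a, Oasl1, Usp18, Trim30a, Ifi35 and Xaf1 were lost.

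**Figure D2:**
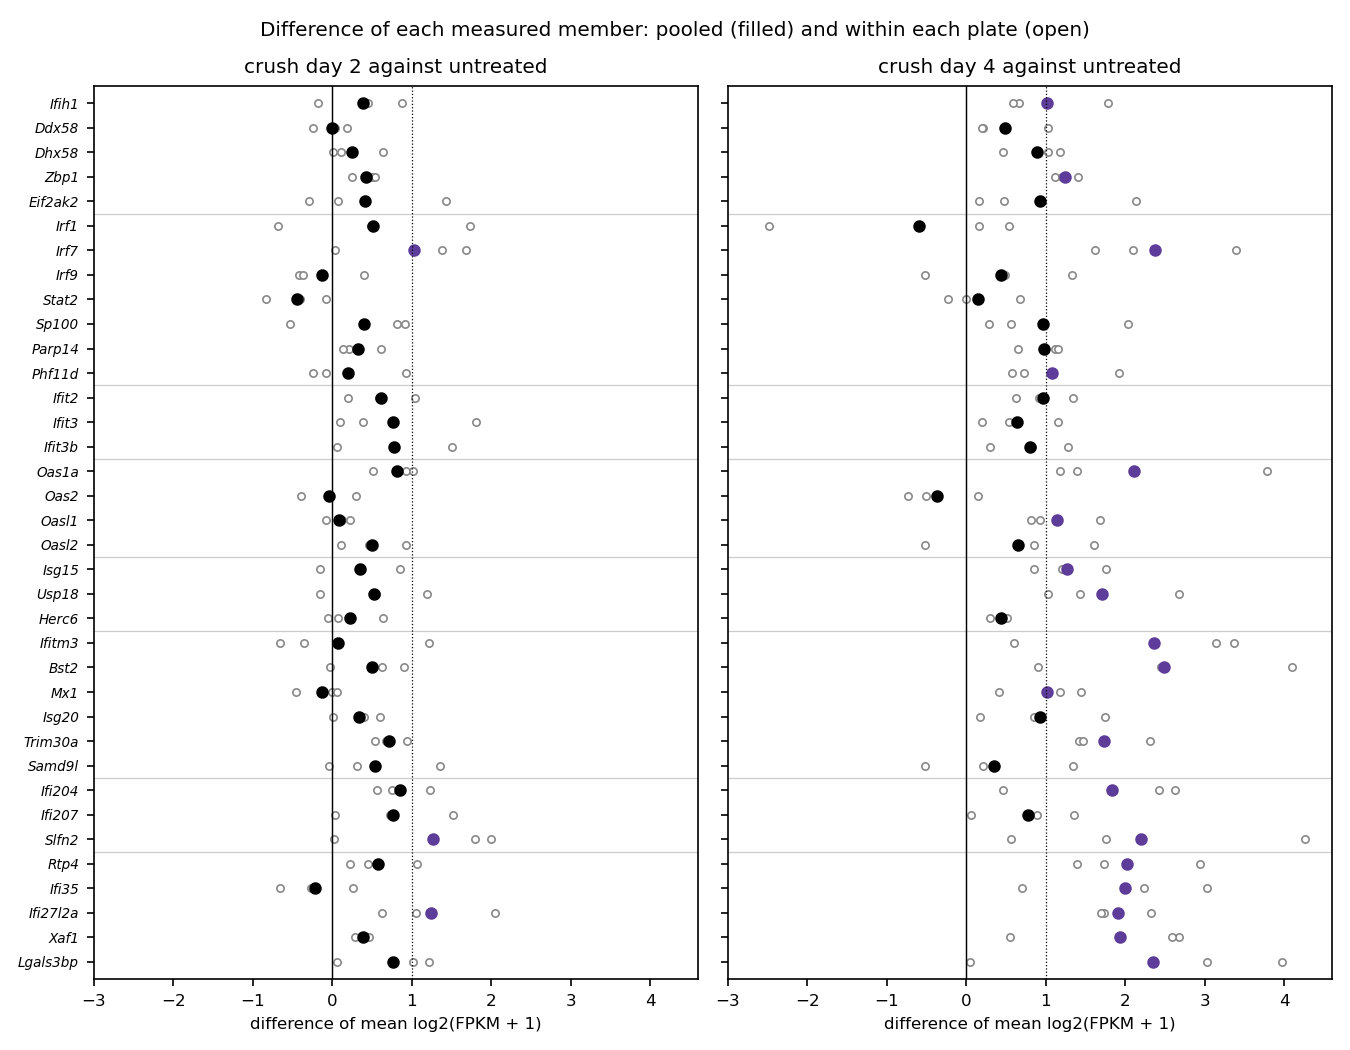
Difference of mean log2(FPKM + 1) from untreated cells for the 36 measured members on day 2 (left) and day 4 (right). Filled points are all plates pooled (purple where called higher), open points are single plates, and the dotted line marks a difference of 1. On day 4 all but Irf1 and Oas2 lie at positive pooled differences, and the plates spread widely around many of them.

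The cytosolic sensors were high in few cells. Zbp1, which binds left-handed double helices and can start necroptosis, reached 100, 168 and 139 FPKM in its highest untreated, day 2 and day 4 cell, with median cells at 0.120, 0.0961 and 0.115 FPKM. High cells numbered 2 of 54, 5 of 54 and 10 of 36. The day 4 difference from untreated was 1.24, with 1.41, 1.11 and 1.2 by plate, which is the narrowest spread over plates among the sensors. Ifih1 (MDA5, a sensor of long double-stranded RNA) was high in 2, 4 and 4 cells and differed on day 4 by 1.01 (0.66, 1.78 and 0.59), just at the threshold of the call, which was lost without plate 2. Eif2ak2 (PKR, a kinase that halts translation on double-stranded RNA) was high in 3, 5 and 5 cells, with differences of 0.41 on day 2 and 0.92 on day 4. Dhx58 (LGP2) was high in 2, 4 and 7 cells and differed by 0.89 on day 4 (1.02, 1.18 and 0.46). Ddx58 (RIG-I) was high in 2, 0 and 4 cells. None of the last 3 was called.

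Among the transcription regulators, Irf7, which drives the genes of type I interferons themselves, was called in all 3 comparisons. Its exons overlap those of Phrf1, so some of its reads may belong to that gene. The highest cell had 108 FPKM in untreated cells, 429 FPKM on day 2 and 392 FPKM on day 4. The median cells lay at 0.359, 0.397 and 0.662 FPKM. Irf7 was high in 1 of 54 untreated cells (1.85%, 95% Clopper-Pearson interval 0.0469% to 9.89%, counting error only), in 10 of 54 on the second day (18.5%, 9.25% to 31.4%) and in 14 of 36 on day 4 (38.9%, 23.1% to 56.5%). Most cells were thus low in Irf7 at each time point, and more cells were high after crush. The mean log2 level was 0.66 ± 0.98 (SD over 54 cells), 1.69 ± 2.54 (54 cells) and 3.03 ± 3.28 (36 cells), and the difference was 1.04 on day 2 (0.03, 1.69 and 1.39 by plate) and 2.37 on day 4 (1.62, 3.39 and 2.09). In plate 1 the day 2 difference of Irf7 was thus near 0, with 0 of 18 cells high.

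Irf1, an interferon-induced transcription factor, differed from the other members. Its median cell had 0.656, 1.28 and 0.783 FPKM and its highest cell 537, 453 and 137 FPKM. It was high in 13 of 54 untreated, 19 of 54 day 2 and 6 of 36 day 4 cells. Day 4 was lower than day 2 by a difference of -1.11 (-0.32, -1.21 and -1.81 by plate). Against untreated cells the plates disagreed in sign, with 0.16, 0.53 and -2.49 on day 4. Phf11d, a PHD finger gene, was high in 8, 10 and 12 cells and differed by 1.07 on day 4 (0.58, 0.72 and 1.92), a call lost without plate 3. For Phf11d 72.7% of the values above 0 were not whole reads. Irf9 and Stat2, which encode parts of the ISRE-binding complex, were not called, with day 4 differences of 0.43 and 0.14, and neither were Sp100 (0.96) and Parp14 (0.97).

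**Figure D3:**
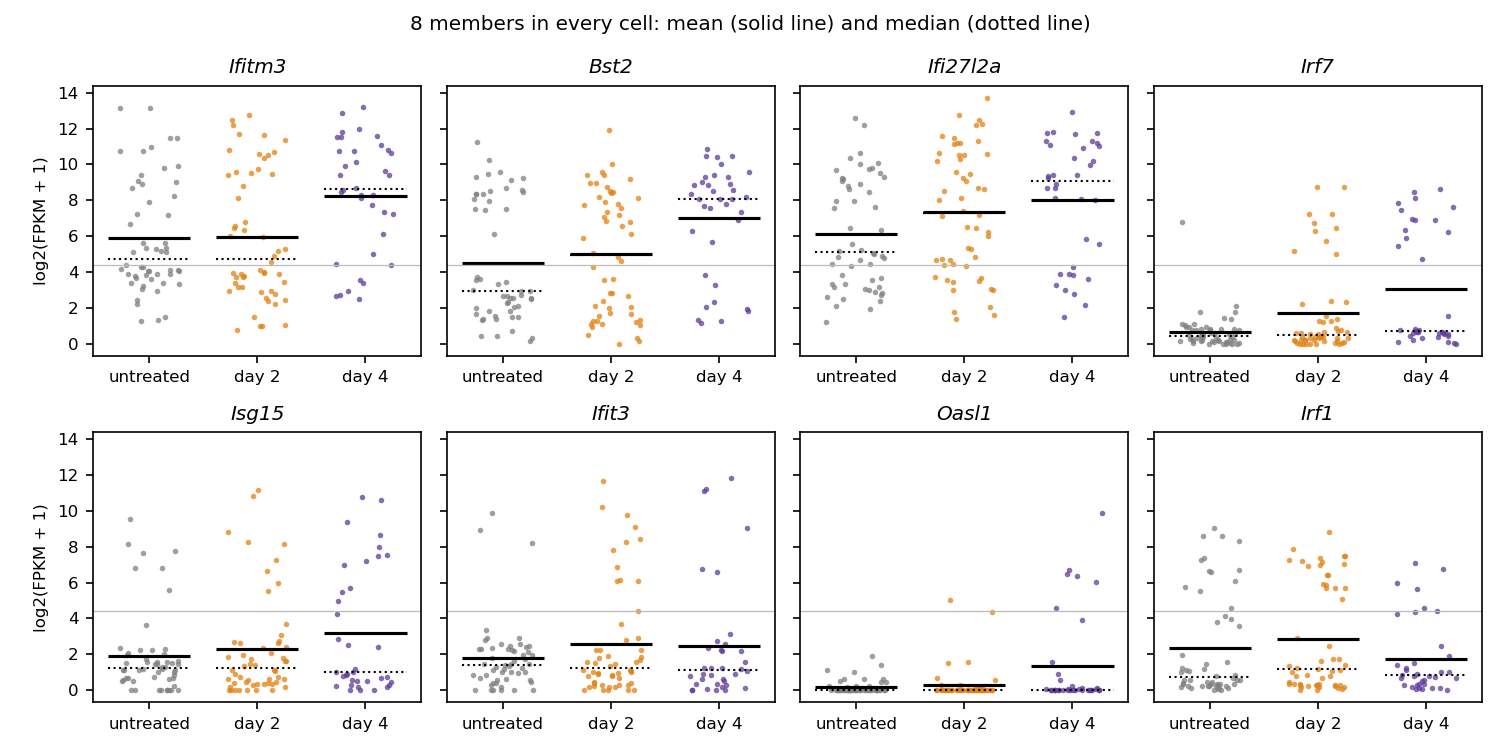
8 members in each cell on the log2(FPKM + 1) scale, with the mean (solid) and the median (dotted) of each time point and a grey line at 20 FPKM. Irf7, Isg15, Ifit3 and Oasl1 show a low majority and a high minority of cells, whereas Ifitm3, Bst2 and Ifi27l2a divide more evenly.

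The IFIT genes, whose products bind viral RNA ends and hinder translation, had some of the highest single-cell levels, with Ifit2 behind only Ifi27l2a and Ifitm3, and 0 of the 3 measured IFIT members were called in any comparison. Ifit3 reached 946 FPKM in untreated cells, 3313 FPKM on day 2 and 3699 FPKM on day 4, with medians of 1.67, 1.34 and 1.2 FPKM. The high cells were 3 of 54, 12 of 54 and 6 of 36. Its differences were 0.77 on day 2 (0.10, 0.38 and 1.82) and 0.63 on day 4 (0.20, 0.54 and 1.15). Between day 4 and day 2 the plates differed in sign (0.09, 0.16 and -0.66), and the mean FPKM was 253 on day 4 against 134 on day 2. Ifit2 reached 128, 285 and 3936 FPKM and was high in 3, 7 and 5 cells, with a day 4 difference of 0.96 (1.34, 0.92 and 0.62). Ifit3b was high in 3, 8 and 5 cells and differed by 0.80 on day 4. Ifit3 and Ifit3b share 51.2% of the 50-base words of Ifit3, and over 50% of the values of each above 0 are not whole reads, so the reads of the pair cannot be fully told apart. Ifit1 did not pass the filter on low values. It was high in 0 untreated cells (at most 2.36 FPKM), in 2 day 2 cells and 3 day 4 cells, with up to 268 FPKM.

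Within the OAS family, whose enzymes make a messenger that activates RNase L, the members differed. Oas1a reached 385, 837 and 451 FPKM, with medians of 0.979, 0.87 and 2.13 FPKM, and was high in 7, 13 and 17 cells, from 13% of untreated cells (5.37% to 24.9%) to 47.2% of day 4 cells (30.4% to 64.5%). It differed by 0.82 on day 2 (0.52, 0.93 and 1.01) and by 2.11 on day 4 (1.39, 3.79 and 1.17). Oas1a shares 57.6% of its 50-base words with Oas1g, and 73.6% of its values were not whole reads. Oasl1, which has lost the enzymatic activity and limits translation of Irf7, stayed at or below 2.71 FPKM in all 54 untreated cells. It was high in 1 day 2 cell and 6 of 36 day 4 cells, with up to 951 FPKM, and differed by 1.14 on day 4 (0.93, 1.68 and 0.82), a call lost without plate 2. Oasl2 was high in 4, 8 and 7 cells and its day 4 difference had mixed signs (-0.53, 0.85 and 1.61). Oas2 was high in 4, 3 and 1 cells, with a day 4 difference of -0.37. Oas3 was high in 0, 2 and 1 cells.

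The ubiquitin-like modifier Isg15, its protease Usp18 and the ligase Herc6 form a system that tags newly made proteins. Isg15 reached 737, 2297 and 1765 FPKM, with medians of 1.35, 1.36 and 1.03 FPKM, and was high in 7, 9 and 12 cells. The median cell was therefore no higher on day 4, while the share of high cells was 33.3% (18.6% to 51%) against 13% in untreated cells (5.37% to 24.9%). Its mean log2 level was 1.93 ± 2.33, 2.28 ± 2.87 and 3.20 ± 3.52 (SD over cells), and its difference was 0.36 on day 2 (0.86, 0.35 and -0.15) and 1.27 on day 4 (1.21, 1.76 and 0.85). Usp18, which also shuts off the type I receptor, reached 397, 231 and 1014 FPKM, was high in 3, 7 and 12 cells and differed by 1.71 on day 4 (1.02, 2.68 and 1.43). Herc6 was high in 2, 2 and 3 cells and was not called, with a difference of 0.43 on day 4 (0.49, 0.30 and 0.52).

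Among genes that block viruses, Ifitm3 and Bst2 had the broadest high levels. Ifitm3 ran from 1.36 through a median of 26.6 to 9210 FPKM in untreated cells, from 0.711 through 25.6 to 6868 FPKM on day 2 and from 4.64 through 391 to 9503 FPKM on day 4. Ifitm3 was high in 27 of 54, 28 of 54 and 29 of 36 cells, and its mean log2 level was 5.90 ± 3.15, 5.97 ± 3.60 and 8.26 ± 3.23 (SD over cells). The day 4 difference was 2.37 (0.59, 3.14 and 3.37 by plate), while day 2 gave 0.07 with mixed signs (-0.36, -0.65 and 1.22). Bst2 ran from 0.114 through a median of 6.67 to 2471 FPKM in untreated cells, from 0 through 29.6 to 3863 FPKM on day 2 and from 1.24 through 266 to 1869 FPKM on day 4. Its mean log2 level was 4.51 ± 3.33, 5.01 ± 3.37 and 6.99 ± 3.09 (SD over cells). Bst2 differed by 2.48 on day 4 (4.10, 2.44 and 0.90) and by 0.50 on day 2. Bst2 was the one member whose day 4 call held under all 12 alternative settings tried. Its day 4 levels were above those of day 2 in plates 1 and 2 (3.48 and 2.47) and equal in plate 3 (-0.01).

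Trim30a, a regulator of inflammatory signalling, was high in 4, 8 and 13 cells and differed by 1.73 on day 4 (1.41, 2.31 and 1.46). Mx1, a dynamin-like GTPase that stops influenza viruses, was high in 1, 1 and 7 cells, with up to 50.9, 40.1 and 529 FPKM, and differed by 1.01 on day 4 (1.45, 1.18 and 0.41), a call that was lost without plate 1 or without plate 2. Isg20 and Samd9l were not called, with day 4 differences of 0.93 and 0.34. Rsad2 (viperin) and Cmpk2, neighbouring genes that act on nucleotides, were high in 1, 1 and 4 and in 0, 0 and 3 cells. All 3 cells high in Cmpk2 were among the 6 high in Rsad2. Mx2 was high in 2 cells at each time point.

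Of the DNA-binding p200 family, Ifi204 was high in 3, 10 and 12 cells and differed by 1.84 on day 4 (0.46, 2.63 and 2.42), with 74.8% of its values not whole reads. Ifi207 was high in 5, 11 and 7 cells and differed by 0.76 on day 2 and 0.77 on day 4. Slfn2, a Schlafen gene known from immune cell quiescence, had medians of 1.92, 3.89 and 54.8 FPKM and highest cells of 2990, 829 and 667 FPKM. It was high in 9 of 54, 21 of 54 and 19 of 36 cells, with differences of 1.27 on day 2 (0.02, 1.80 and 1.99) and 2.19 on day 4 (1.76, 4.26 and 0.55). The highest Slfn2 cell was thus an untreated one, and the mean FPKM on day 2 was lower than in untreated cells (102 against 121) although the mean log2 level was higher. Slfn5 was high in 2, 3 and 1 cells.

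All 5 measured members of the remaining group were called higher on day 4. Ifi27l2a had medians of 33.2, 157 and 541 FPKM and was high in 35 of 54, 41 of 54 and 26 of 36 cells. It differed by 1.24 on day 2 (0.62, 1.06 and 2.05) and by 1.91 on day 4 (1.73, 2.32 and 1.69). Lgals3bp had medians of 5.53, 27.5 and 246 FPKM and differed by 2.35 on day 4, with 3.03 and 3.97 in plates 1 and 2 and 0.04 in plate 3. Plate 3 thus showed almost no difference in Lgals3bp between day 4 and untreated cells. In that plate day 2 differed from untreated cells by 1.22, and day 4 from day 2 by -1.18. Untreated cells were high in Lgals3bp in 9 of 18 cases in plate 3, against 3 and 7 of 18 in the other plates. What sets plate 3 apart was not tested. Rtp4, a chaperone of membrane receptors that also holds back virus replication, was high in 5, 10 and 16 cells and differed by 2.02 on day 4 (1.39, 2.94 and 1.73). Ifi35 had medians of 0.704, 0.540 and 36.7 FPKM and differed by 1.99 (0.71, 3.03 and 2.24) on day 4. Xaf1, a proapoptotic gene, was high in 4, 7 and 14 cells and differed by 1.94 (0.54, 2.68 and 2.59). Ifi44 was high in 1 cell, on day 2.

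Counted per cell, the number of members at 20 FPKM or more ran from 0 through a median of 3 to 24 in untreated cells, from 0 through 5 to 27 on day 2, and from 0 through 9 to 35 on day 4. The medians by plate were 3, 3 and 5.5 in untreated cells, 2.5, 6 and 7.5 on day 2 and 5.5, 12 and 8.5 on day 4. Day 4 was the highest time point in every plate, whereas day 2 was below untreated cells in plate 1. At least 10 members were high in 6 of 54 untreated cells (11.1%, 4.19% to 22.6%), 12 of 54 day 2 cells (22.2%, 12% to 35.6%) and 17 of 36 day 4 cells (47.2%, 30.4% to 64.5%). Most of these day 2 cells also had at least 3 high markers of another cell type, mainly of border macrophages. Few of the untreated and day 4 cells with at least 10 members did. The part of such cells in the day 2 share was not tested. With every cell thinned to 2000000 reads the medians were 3.5, 5 and 9 (50, 45 and 36 cells; 4, 9 and 0 cells were too shallow). The count went with the number of genes detected (Spearman rho 0.69 over all cells, 0.58 within time point and plate) and little with reads (0.18 and 0.08). Both counts come from the same library, and the part of detected genes in the member count was not tested.

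**Figure D4:**
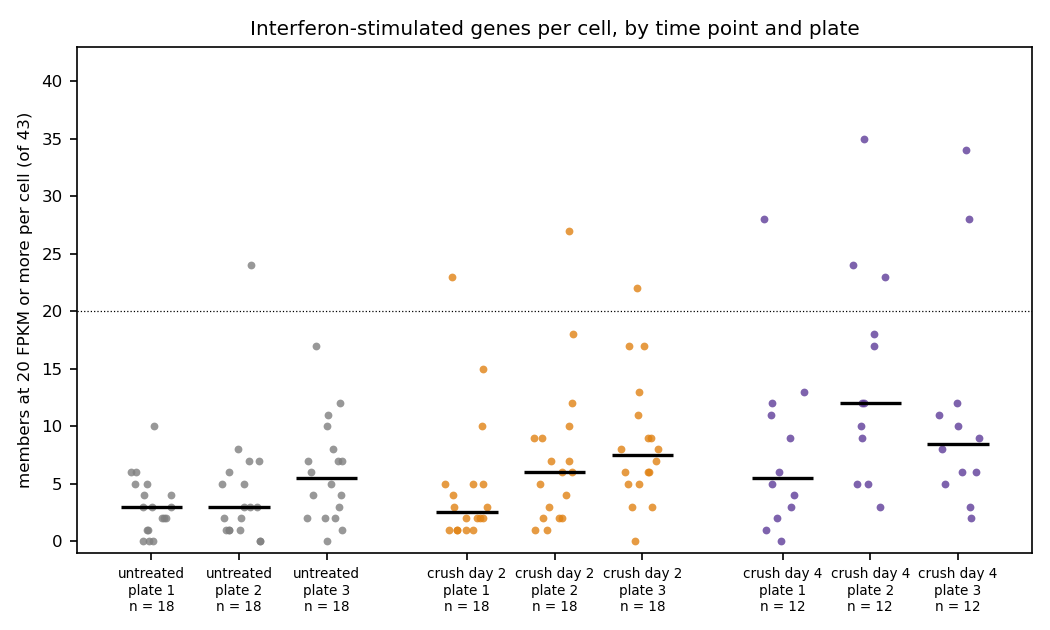
Number of the 43 members at 20 FPKM or more in each cell, by time point and plate, with the median of each group as a bar and a dotted line at 20 members. The day 4 medians (5.5, 12 and 8.5) are the highest in each plate, and 10 single cells lie above the dotted line.

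Reads of a member were also found at low levels in many wells. Among wells where a member was under 20 FPKM, 83.8% held a read of it where another well of the same plate column was high, against 46.9% where none was. These shares pool members that differ in how often they were detected, and the medians over members were 81.7% and 63.2%. The share was greater beside a high well in 32 of the 38 members with wells of both kinds. The shares of high cells above do not use low values, whereas the mean log2 levels, the differences and the correlations do, and the part of such reads in those was not tested.

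A total of 10 cells had 20 or more members high, a limit set after the values were seen; the next cells had 18 and 17. They were 1 of 54 untreated cells (1.85%, 0.0469% to 9.89%), 3 of 54 on day 2 (5.56%, 1.2% to 15.4%) and 6 of 36 on day 4 (16.7%, 6.37% to 32.8%), and every plate held at least 2 of them. The highest counts were 35 (day 4, plate 2), 34 (day 4, plate 3) and 28 in 2 further day 4 cells. From 5 to 10 of the 10 microglia markers were high in these cells. In 4 of the 10, at least 3 markers of another type were also high, those of border macrophages in 3 cells and of monocytes in 1, and the part of such cells in the high counts was not tested. The other 6 cells, 5 of them from day 4, had fewer than 3 markers of every other type.

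Since these cells were picked for their members, their share of each member's total is a description only. They make up 6.94% of cells and held a median of 6.35% of the summed FPKM of all measured genes. They held 98.7% of the summed FPKM of Cmpk2, 96.5% of Ifit1, 92.6% of Rsad2, 89.6% of Ifit2 and 88.6% of Oasl1. For Isg15 the share was 55.7% and for Irf7 45.7%. At the other end were Ifi27l2a with 16.3%, Irf9 with 16.1%, Bst2 with 14.6%, Slfn2 with 13.2%, Eif2ak2 with 11.6%, Lgals3bp with 10.7%, Irf1 with 4.2% and Ifi44, high in 1 cell, with 0%. Isg15, Oas1a, Ifitm3, Bst2, Rtp4 and Lgals3bp were high in all 10 cells, whereas Irf1 was high in 2 of the 10 and in 36 of the other 134.

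Across all cells, with the mean of each time point and plate subtracted, the 36 measured members went together. The median Spearman rho over the 630 member pairs was 0.27, and 95.9% of pairs were above 0, while the median over all pairs of measured genes was 0.073. With the number of detected genes also removed, the medians were 0.22 and 0.015. The points share libraries and depth, and the member median was 0.26, 0.33 and 0.23 within plates 1, 2 and 3. Ifit3 and Ifit3b had the highest rho, 0.92, and they share sequence as given above. Next came Ifit3 with Ifi207 (0.67), Ifit3b with Ifi207 (0.64) and Ifit3b with Oasl2 (0.63). Dhx58 and Zbp1 reached 0.57, and Isg15 and Usp18 0.55.

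Over all cells, Isg15 had the highest rho with the mean of the other members (0.62). Close behind were Ifi207 and Rtp4 (0.60 each), Ifit3 (0.59), Ifit3b (0.57) and Irf7 (0.56). The order changed by plate. Isg15 had 0.56, 0.72 and 0.48 in plates 1 to 3, below Slfn2 in plate 1 (0.64), Ifi207 in plate 2 (0.81) and Rtp4 in plate 3 (0.64). With detected genes removed, Irf7 had 0.58 and Isg15 0.57. Irf1 had a rho of 0.04 with the other members, and -0.24 once detected genes were removed. The next lowest were Oas2 (0.23) and Isg20 (0.25). At least 25% of all cells were high in 8 members (Irf1, Oas1a, Ifitm3, Bst2, Slfn2, Ifi35, Ifi27l2a and Lgals3bp), a division made after the values were seen. The 28 members high in fewer cells had a median rho of 0.32 among themselves, the 8 had 0.21, and pairs across had 0.19. Of the 21 cells high in Ifit3, 12 were high in Irf7, 12 in Isg15, 20 in Bst2 and 3 in Irf1. Of the other cells, 13, 16, 56 and 35 were.

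**Figure D5:**
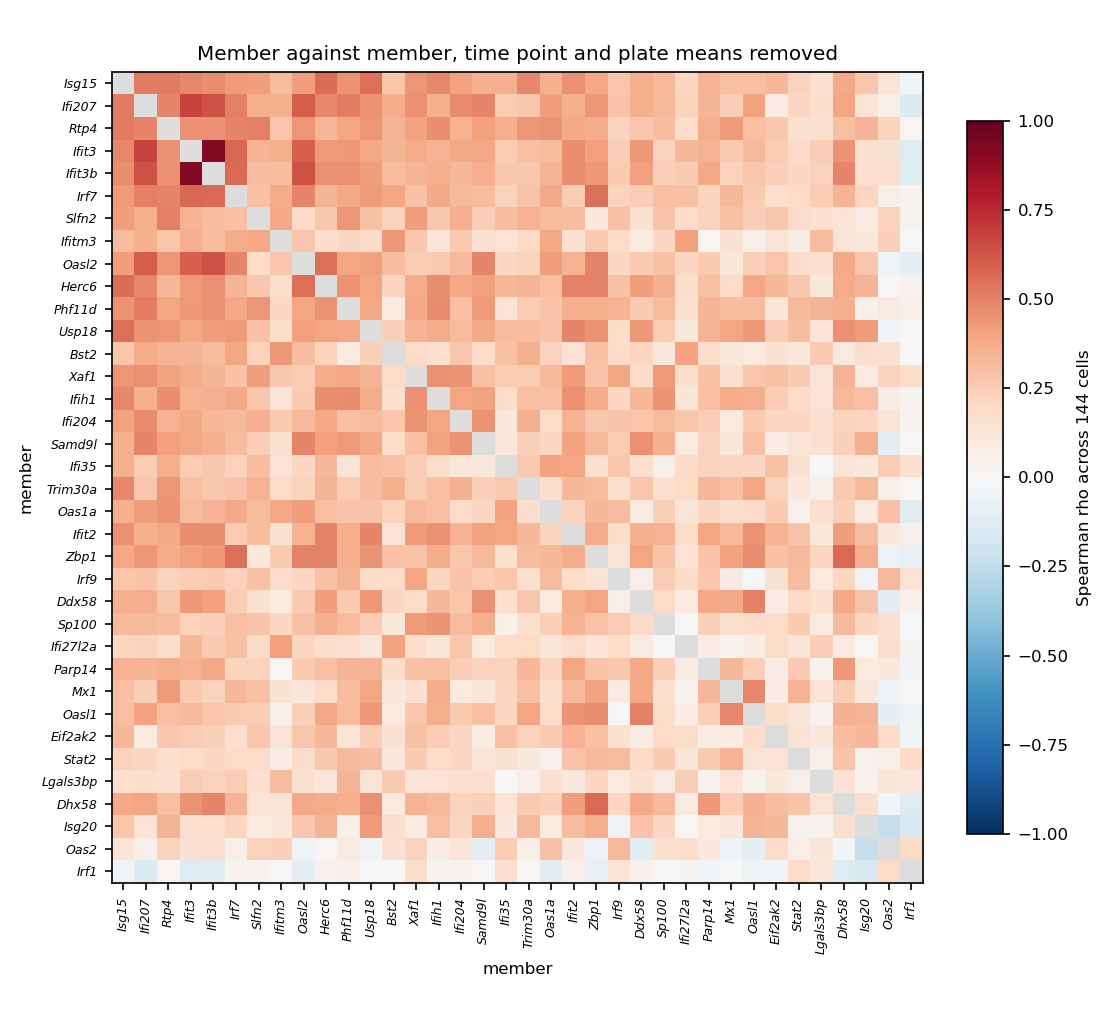
Spearman rho between the 36 measured members across all cells after subtraction of time point and plate means, ordered by rho with the mean of the other members. Red is positive and blue negative on a scale from -1 to 1, with the diagonal in grey. Ifit3 and Ifit3b stand out at 0.92, and the row of Irf1, last in order, is close to white.

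Of the 8679 measured genes, those outside the list whose pattern was most like the mean of the members included Ifi211 (rho 0.57), Phf11a (0.57), Gm28177 (0.55), Trex1, a DNA-degrading exonuclease (0.55), Tor1aip1 (0.54), Fgl2 (0.53), Oas1g (0.52), Gm45193 (0.52) and Ifi209 (0.51). The median of all measured genes was 0.15. Removal of detected genes lowered Tor1aip1 to 0.25 and left Ifi211 at 0.54 and Ifi209 at 0.53. Gm45193 overlaps exons of the member Herc6, and Ifi211 and Oas1g share sequence with Ifi204 and Oas1a.

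The wider pathway was read from lists of its parts, whose counts stand beside 3.89% of all measured genes called higher on day 2, 18.9% on day 4 and 9.57% between day 4 and day 2. Of 21 interferon genes 0 were measured and 18 were at 0 in every cell. Ifnb1, the first type I interferon made in most cells, was high in 1 cell, at 179 FPKM, and this was the day 4 cell of plate 2 that had the most members high (35). Its other 7 detections were at most 1.27 FPKM, 6 of them on the same plate. Of the receptor genes 5 of 6 were measured and 0 were called in any comparison: Ifnar2 was high in 20, 28 and 16 cells and Ifngr1 in 33, 37 and 21 cells.

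Of 8 measured signalling genes, Jak1, a kinase at the receptors, was called higher on day 2 with a difference of 1.05 (0.81, 1.39 and 0.94). Of 5 measured inhibitors, Socs3 was called higher on day 2 with 1.01 (0.86, 1.62 and 0.54) and the phosphatase gene Ptpn11 on day 4 with 1.14 (1.30, 1.25 and 0.86). Of 10 measured genes linked to nucleic acid sensing, the exonuclease gene Trex1 among them, 0 were called. Among 20 genes best known from interferon gamma, 7 were measured and 3 were called higher on day 4, namely the GTPase genes Igtp with 2.16 (1.44, 3.95 and 1.10) and Irgm2 with 1.2 (1.43, 1.91 and 0.14), and the chemokine gene Cxcl10 with 1.75 (1.32, 1.94 and 2.00). Cxcl10 was high in 2, 2 and 11 cells. The same 3 were called between day 4 and day 2. Of the values above 0, 58.4% of Igtp and 65.2% of Irgm2 were not whole reads.

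Of 37 further interferon-stimulated genes 22 were measured. On day 2, 2 were called higher, Ube2l6, the conjugating enzyme of ISG15, with 1.40 (0.84, 1.28 and 2.09) and Nmi with 1.24 (1.11, 0.98 and 1.65). On day 4, 4 were called higher than untreated: Tor3a and Oas1g with 1.74 each, and Parp12 and Nmi with 1.31 each. These 4 of 22 are a share close to the 18.9% of all genes. Between day 4 and day 2, 4 were called higher: Fcgr1 with 1.39, Oas1g with 1.10, and Slfn8 and Tor3a with 1.02 each. Oas1g shares sequence with the member Oas1a, and 77% of its values above 0 were not whole reads. The median difference of the 22 genes from untreated cells was 0.32 on day 2 and 0.76 on day 4.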

How the data were processed

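The authors deposited 1 table of FPKM values, 55364 rows by 144 cells. The submitters' processing notes list STAR 2.7.2b, featureCounts 1.6.1, Trim Galore 0.4.4, cutadapt 1.16 and Trimmomatic 0.36 with GRCm38.p6, and no role or setting for them. Per the labels' protocols, amplified cDNA was tagmented, and no strand or molecular identifier is mentioned. Where a symbol had several rows (110 repeats), the one with the highest mean was used. Depth came from the FPKM value of 1 read. A median of 59.4% of values per cell were whole within 0.01 read, so no count model was fitted. The members, lists and rules were chosen with earlier results of these data known. Values in full are given for up to 3 members per role with the highest mean FPKM and for those called, with at most 4 called genes from each wider list and genes among the 10 most like the members' mean. Results for 1 gene outside the members are not reported here. Marker lists covered microglia, border macrophages, monocytes, neutrophils, plasmacytoid dendritic cells, T and natural killer cells, rods, Müller glia and endothelium. Intervals are exact 95% binomial (Clopper-Pearson). The code was tested on simulated data (Python 3.11.15, NumPy 2.4.6, pandas 2.3.3, SciPy 1.17.1).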

Additional observations from a re-analysis of the deposited data

How the results depend on the processing

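Differences of named members were recomputed 386 times over 12 alternative settings. Of these, 319 stayed within 1 SD over the 3 plates of the main value, 63 moved further and 4 reversed. That SD is wide where plates disagree, and a difference that stayed within it could still lose its call. The reversals were Slfn2 on day 2 (-0.24) and Trim30a between day 4 and day 2 (-0.14) with log2 of the mean FPKM, and Zbp1 (-0.00698) and Isg15 (-0.21) on day 4 with the median over cells, an alternative added after the data were seen. Day 2 counts of members called higher were 6 with a pseudocount of 0.1, 1 with a pseudocount of 10, 7 with log2 of the mean (1 lower), 0 with detected genes as a covariate and 1 with the median over cells, beside 9.48%, 0.588%, 8.04%, 0.933% and 3.51% of all genes. The day 2 median was 0.65 and 0.21 with those pseudocounts, 0.21 with the covariate, 0.19 without the 21 cells with markers of another type and 0.0251 with the median over cells. Day 4 counts were 9 with a pseudocount of 10, 6 with the covariate and 5 with the median over cells, beside 5.21%, 5.90% and 12.6% of all genes, with 1 lower under the covariate and 1 lower with log2 of the mean, and the median was 0.0551 with the median over cells. Between day 4 and day 2, 3 were higher and 0 lower with a pseudocount of 10, 4 higher with the covariate, 3 higher and 0 lower with the median over cells (median 0.0266), and 2 lower with log2 of the mean. All genes were called higher there in 2.58%, 4.86% and 7.55%, so with the median over cells the members were near the other genes. Leaving out 1 plate at a time gave 1 to 7 members higher on day 2. It gave 17 to 24 on day 4 and 6 to 14 between them, with 0 to 1 lower. Of all genes, 4.36% to 9.54%, 16.6% to 25.4% and 9.08% to 18.5% were then called higher, and 0.207% to 2.07% lower. With log2 of the mean, 5.58%, 6.08% and 6.10% of all genes were called lower in the 3 comparisons. Members per cell had a median of 5 in untreated cells at 5 FPKM and of 5 on day 4 at 100 FPKM. The median rho was 0.22 with detected genes removed. The causes were not tested. The covariate moved the median difference of all genes on day 4 to 0.06. Rare members rest on few cells, and 13 cells had under 2000000 reads.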
